A study of Mus musculus with 5 samples.

Results

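A gene rule picked out 3625 stromal cells of the developing mouse penis, 18.5% of the 19633 penis cells kept. A member carried at least 1 unique molecular identifier (UMI, 1 counted mRNA molecule) of 3 or more of 6 genes, *Angpt2*, *Ccl19*, *Orm3*, *Pi15*, *Prlr* and *Stk32a*, and none of *Cdh5* or *Rgs5*, which mark endothelial cells and pericytes. Cells were kept with 500 to 6000 detected genes and at most 5% mitochondrial UMIs. The 3 penis libraries held 1305 members of 6806 kept cells, 1319 of 7107 and 1001 of 5720, or 18.4% ± 0.847 (SD, n = 3 libraries). They are called Angpt2/Ccl19 stromal cells, or members.

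The single cell RNA-seq (scRNA-seq) covered 5 libraries of mice labelled C57BL/6N, with no transgene or treatment named: 3 of male postnatal day 6 (P6) penis, dissected without the prepuce, 1 of forelimb and 1 of hindlimb at embryonic day 15. The methods of the paper that reported these libraries instead name C57BL/6J for all its mice. For its P6 penis samples the paper names 3 males from 2 litters. Nothing links a penis library to a named mouse or litter, so the tests across libraries measure only the spread between these libraries. Some of them may come from the same litter. Penis and limb differ in age as well as tissue. Median depth per kept cell was 9902, 9348 and 8786 UMIs for the penis, 5747 for the forelimb library and 6315 for the hindlimb library. Any 2 penis libraries shared between 20 and 37 cell barcodes.

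Stromal cells, or fibroblasts, are the mesenchymal cells that lay down the collagen matrix around vessels, nerves and epithelia, and they secrete growth factors and chemokines to which other cells respond. Angiopoietin-2, encoded by *Angpt2*, is a secreted ligand of the endothelial receptor Tie2 and acts in vessel remodelling. *Ccl19* encodes a chemokine that draws lymphocytes and dendritic cells through the receptor CCR7, and is best known from the stroma of lymph nodes. *Orm3* belongs to the orosomucoids, acute phase proteins of blood plasma. *Pi15* encodes a secreted peptidase inhibitor, *Prlr* the prolactin receptor and *Stk32a* a serine/threonine kinase. Autotaxin, the product of *Enpp2*, is a secreted enzyme that makes the lipid mediator lysophosphatidic acid.

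On GRCm38 (mm10), *Angpt2* lies on the minus strand at chr8:18690263-18741562, *Ccl19* on the minus strand at chr4:42754525-42756577, *Pi15* on the plus strand at chr1:17601901-17630939 and *Prlr* on the plus strand at chr15:10177238-10349180. *Orm3* lies on the plus strand at chr4:63356162-63359511, between its paralogs *Orm1* at chr4:63344560-63348163 and *Orm2* at chr4:63362449-63365878. *Enpp2* lies on the minus strand at chr15:54838901-54952892. The 250 bases before the RefSeq start (GRCm38.p6) are shown for *Orm3* and *Orm2*, neighbouring copies that were both detected in members, and for *Ccl19*, each 5′ to 3′ on its own strand. Capitals mark matches on either strand to TTGCNNAA, the core of the C/EBP motif known from acute phase genes, and to the TATA box TATAAA. The windows are chr4:63355908-63356157 for *Orm3*, chr4:63362199-63362448 for *Orm2* and chr4:42756366-42756615 for *Ccl19*.
Orm3: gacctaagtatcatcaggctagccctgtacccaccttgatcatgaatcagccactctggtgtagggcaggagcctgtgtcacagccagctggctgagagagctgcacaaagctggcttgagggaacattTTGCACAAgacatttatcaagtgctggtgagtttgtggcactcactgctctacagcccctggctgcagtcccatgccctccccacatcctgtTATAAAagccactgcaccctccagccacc
Orm2: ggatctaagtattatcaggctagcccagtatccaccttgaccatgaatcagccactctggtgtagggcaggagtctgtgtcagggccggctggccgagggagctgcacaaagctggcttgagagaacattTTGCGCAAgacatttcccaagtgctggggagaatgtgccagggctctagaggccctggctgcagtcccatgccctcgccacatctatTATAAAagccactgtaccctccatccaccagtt
Ccl19: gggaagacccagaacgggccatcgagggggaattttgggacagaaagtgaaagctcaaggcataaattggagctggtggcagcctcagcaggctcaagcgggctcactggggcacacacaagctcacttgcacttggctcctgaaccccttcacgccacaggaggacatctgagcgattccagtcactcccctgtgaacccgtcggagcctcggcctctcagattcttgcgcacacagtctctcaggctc

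The *Orm2* and *Orm3* windows were identical at 219 of 255 aligned positions, or 85.9%. Each held 1 C/EBP match and 1 TATA box, and the *Ccl19* window held neither. Most of the *Ccl19* window lies inside the GENCODE gene, which starts at chr4:42756577 on the minus strand. Little of the sequence before that start was thus searched, while the *Orm2* and *Orm3* windows lie wholly before their genes. Of the 32851 promoter windows in the RefSeq table, 9.56% held a C/EBP match and 12.4% a TATA box. The STAT motif TTCNNNGAA, found in 7.02% of windows, was in none of the 3. These matches describe letters and not binding.

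The members were chosen by detection of the rule genes in these same cells, so the levels of those genes are given as a description with no test. UMIs were summed per library over a set of cells and scaled to the UMI total of that set, as CPM (UMIs per 1e6 UMIs). *Angpt2* stood at 392, 406 and 390 CPM in members and at 32.0, 29.9 and 33.2 CPM in all other kept penis cells. *Ccl19* stood at 211, 220 and 186 CPM in members and 15.2, 15.2 and 14.01 CPM in the others. Both genes were at similar levels in the members of all 3 libraries. *Pi15* was the rule gene most often seen elsewhere, with a UMI in 20.5%, 21.0% and 20.9% of the other cells and in 86.7%, 86.5% and 87.1% of members. *Orm3* was the rule gene least often detected in members, with a UMI in 41.4%, 44.7% and 40.2% of them. *Prlr* was detected in 49.96%, 52.0% and 49.5% of members, and *Stk32a* in 66.9%, 65.6% and 67.7%.

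Droplet libraries also carry free RNA, which gives UMIs in cells that do not express a gene. In leukocytes, taken as non-members with a UMI of 4 or more of 6 leukocyte genes, *Angpt2* had a UMI in 2.70% to 5.94% of cells, *Ccl19* in 0.457% to 2.43%, *Pi15* in 3.24% to 4.57%, *Prlr* in 1.62% to 3.40% and *Enpp2* in 10.8% to 19.4%. Their median depth was 6743 to 8247 UMIs, beside 9944 to 11323 in members. The shares in members were 88.3% to 89.3% for *Angpt2* and 77.8% to 81.1% for *Ccl19*, which the rule itself sets, and 90.6% to 91.0% for *Enpp2*, which it did not use. The leukocytes, being non-members, could carry at most 2 of the rule genes unless they also carried *Cdh5* or *Rgs5*. A second gene ID of the same name as *Ccl19* had 0 UMIs in every penis library.

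How far the 6 genes were detected in the same cells was described by holding each out. The genes were picked from earlier results on these libraries, so this is a description with no test. Each gene was left out in turn, cells with 3 or more of the other 5 were chosen, and the gene left out was counted in them and in the remaining cells, all without *Cdh5* and *Rgs5*. The cells were chosen at full depth, so the 2 sets could still differ in depth. Only the held-out gene was thinned: its shares are those expected at 4000 UMIs per cell, with shallower cells left out. Held-out *Angpt2* was in 68.3% ± 0.461 of the chosen cells and 11.3% ± 0.825 of the rest (SD, n = 3 libraries). The corresponding shares were 49.0% ± 2.03 and 7.70% ± 0.271 for *Ccl19*, and 62.2% ± 1.17 and 19.8% ± 0.630 for *Pi15*. They were 41.1% ± 1.12 and 6.31% ± 0.450 for *Stk32a*, 30.9% ± 0.649 and 7.90% ± 0.330 for *Prlr*, and 22.2% ± 1.62 and 2.15% ± 0.138 for *Orm3*. For each of the 6 genes the chosen cells of all 3 libraries lay above the remaining cells of all 3. Without thinning, the differences ran from 33.3 percentage points for *Prlr* to 68.4 for *Angpt2*.

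**Figure D1:**
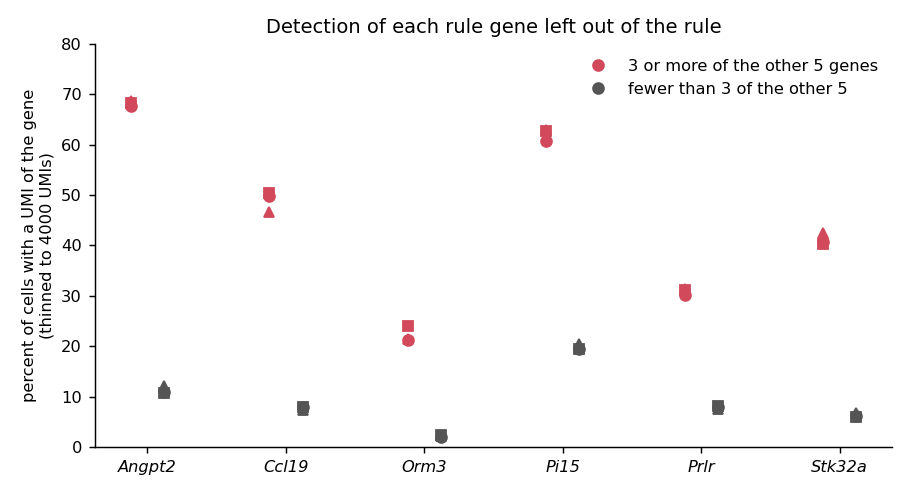
Each rule gene was left out of the rule in turn, and the y axis gives the percent of cells with a UMI of it after thinning to 4000 UMIs. Cells with 3 or more of the other 5 genes, counted at full depth, are set beside all remaining cells without *Cdh5* and *Rgs5*. Circles, squares and triangles are penis libraries 1, 2 and 3, and the chosen cells lie above the rest for all 6 genes, from 68.3% against 11.3% on average for *Angpt2* to 22.2% against 2.15% for *Orm3*.

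On average over the libraries, the share of kept cells fell with each further rule gene, without a gap. Cells without *Cdh5* and *Rgs5* that had 0, 1 or 2 of the genes made up 38.5%, 20.6% and 8.89% of the kept cells on average, and those with 3, 4, 5 or 6 made up 6.47%, 4.93%, 4.90% and 2.11%. Not every library fell at each step: penis 1 had 5.16% at 4 genes and 5.26% at 5, and penis 3 had 4.44% and 4.77%. Single genes are missed in part of the cells, so these counts cannot tell a continuous scale from a separate group of cells. The 1740 cells just outside it, with 2 genes, held 498 ± 62.9 CPM of *Enpp2* (SD, n = 3 libraries), the 1270 just inside, with 3, held 974 ± 13.9 CPM, and the 418 cells with 6 held 2230 ± 191 CPM. *Osr1*, a transcription factor of urogenital mesenchyme, stood at 248 ± 19.4 CPM with 2 genes, 358 ± 6.05 CPM with 3 and 546 ± 19.6 CPM with 6. *Dcn*, which encodes the collagen-binding proteoglycan decorin, ran the other way, with 3126 ± 97.3 CPM at 2 genes, 1776 ± 276 CPM at 3 and 617 ± 119 CPM at 6. Cells with 6 rule genes were also deeper than those with 3 in each library, with a median per library of 9814 to 10441 UMIs at 3 genes and 10187 to 13226 at 6. The rise was not steady in penis 3, with a median of 10487 UMIs at 5 genes and 10187 at 6.

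**Figure D2:**
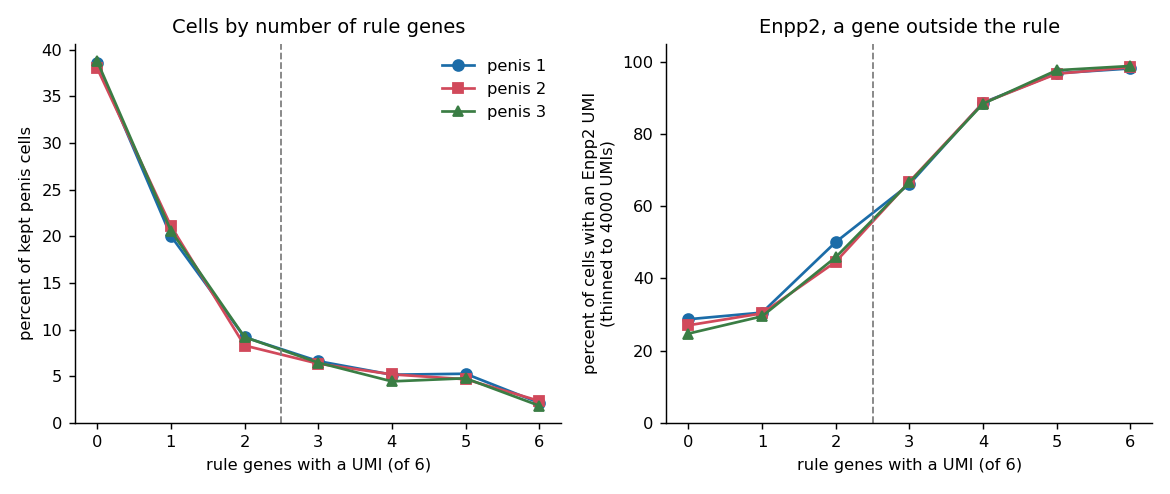
The left panel gives the percent of kept penis cells by the number of rule genes with a UMI, among cells without *Cdh5* and *Rgs5*, and the right panel the percent of those cells with an *Enpp2* UMI after thinning to 4000 UMIs. Circles, squares and triangles are penis libraries 1, 2 and 3, and the line marks the threshold for membership. *Enpp2* was detected in 26.8% of cells with 0 rule genes, 46.9% with 2, 66.5% with 3 and 98.6% with 6, on average over the libraries.

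Members also lay together when the 8 genes of the rule were hidden. In a space of 30 principal components of 2000 other variable genes, computed per library, 74.3% ± 0.637 of the 20 nearest neighbours of a member were members, beside 7.24% ± 0.564 of the neighbours of other cells (SD, n = 3 libraries). Members were 18.4% of the cells. This is a description, since genes correlated with the rule genes were left in the space.

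Hardly any limb cell met the gene rule. After thinning to 4000 UMIs and with the same limits on cells, 778 of 5847 cells of penis 1, 823 of 6020 of penis 2 and 637 of 4932 of penis 3 met it, or 13.3% ± 0.378 (SD, n = 3 libraries). In the forelimb 0 of 12588 cells met it, which allows a share of up to 0.0238% at 3 counts of the total (95% exact binomial upper limit 0.0293%), and in the hindlimb 1 of 13612 did, or 0.00735% (95% exact binomial interval 1.86e-04% to 0.0409%, counting error only). The rule's genes were picked from penis cells of these libraries, so the difference of 13.3 percentage points is a description with no test. Over all kept cells, *Ccl19* stood at 58.6, 59.2 and 48.9 CPM in the penis against 0.117 CPM in the forelimb and 0.0756 CPM in the hindlimb. *Angpt2* stood at 112, 111 and 106 CPM in the penis and 9.52 and 10.6 CPM in the limbs. Tissue and age cannot be told apart in this comparison.

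The stromal label was checked against marker genes. Between 99.6% and 99.7% of members, by library, carried a UMI of 3 or more of 10 mesenchyme markers, beside 78.0% to 78.8% of the other kept cells and 99.0% to 99.3% of the other *Pdgfra* cells compared later. The summed level of the 10 markers, 4483 to 4614 CPM in members, overlapped that of the other kept cells, 4478 to 4630 CPM, and was below that of other *Pdgfra* cells, 6058 to 6240 CPM. The label thus rests on detection and not on a raised level of these markers. *Pdgfra*, the platelet-derived growth factor receptor of fibroblasts, was in 66.4%, 68.0% and 66.4% of members and 49.4%, 48.9% and 48.7% of the other kept cells, unthinned. After thinning to 4000 UMIs, *Pdgfra* was in 38.1% of cells with 0 rule genes, 46.6% with 1, 42.35% with 3 and 36.7% with 6. These are averages over libraries, for cells without *Cdh5* and *Rgs5*. Its detection thus did not rise steadily with the number of rule genes. *Prrx1*, a transcription factor of limb and body wall mesenchyme, was in 91.3%, 89.9% and 90.9% of members, unthinned. The summed levels of markers of other cell types were below those of the other kept cells. Those cells include the other types, so this order was largely set in advance. Beside other *Pdgfra* cells the order was mixed. Members were below them for leukocyte (154 to 162 CPM) and glial markers (205 to 262 CPM). They were above them for endothelial markers (119.5 to 124.6 CPM), and the keratinocyte, pericyte and smooth muscle ranges overlapped. The summed level of 10 leukocyte markers was 37.7 to 101 CPM in members and 564 to 668 CPM in the other kept cells, that of 10 keratinocyte markers 176 to 228 CPM and 1064 to 1176 CPM, and that of 10 glial markers 120 to 156 CPM and 743 to 836 CPM. Endothelial markers, 11 genes, summed to 143 to 154 CPM in members and 885 to 957 CPM in the others, a gap that the exclusion of *Cdh5* partly fixes. The 9 pericyte markers, at 335 to 344 CPM and 401 to 417 CPM, and the 10 smooth muscle markers, at 262 to 278 CPM and 427 to 476 CPM, differed less. By the share of cells with a UMI of 3 or more markers, the order was the other way: 32.1% to 34.2% of members and 20.1% to 22.5% of the other kept cells for the pericyte list, 20.7% to 22.6% and 10.1% to 11.0% for the smooth muscle list, and 79.6% to 83.9% and 42.8% to 44.3% for 10 adventitial fibroblast markers. For the pericyte, smooth muscle and adventitial lists, other *Pdgfra* cells gave 22.8% to 26.6%, 10.6% to 12.2% and 61.5% to 63.3%. *Pi16* and *Clec3b* cells, also compared later, gave 29.4% to 36.1% for the pericyte list and 9.70% to 13.8% for the smooth muscle list. Their median depth was 11199 to 12469 UMIs. These shares were not thinned, members were deeper than the other kept cells, and the part of these markers in the results was not tested. Members with 3 or more markers of the endothelial, leukocyte, keratinocyte or glial list made up 10.0%, 11.4% and 10.2%, beside 32.4%, 33.2% and 31.4% of the other kept cells. Leaving these members out moved no count of genes called against other stroma or other cells by more than 1.5 times.

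**Figure D3:**
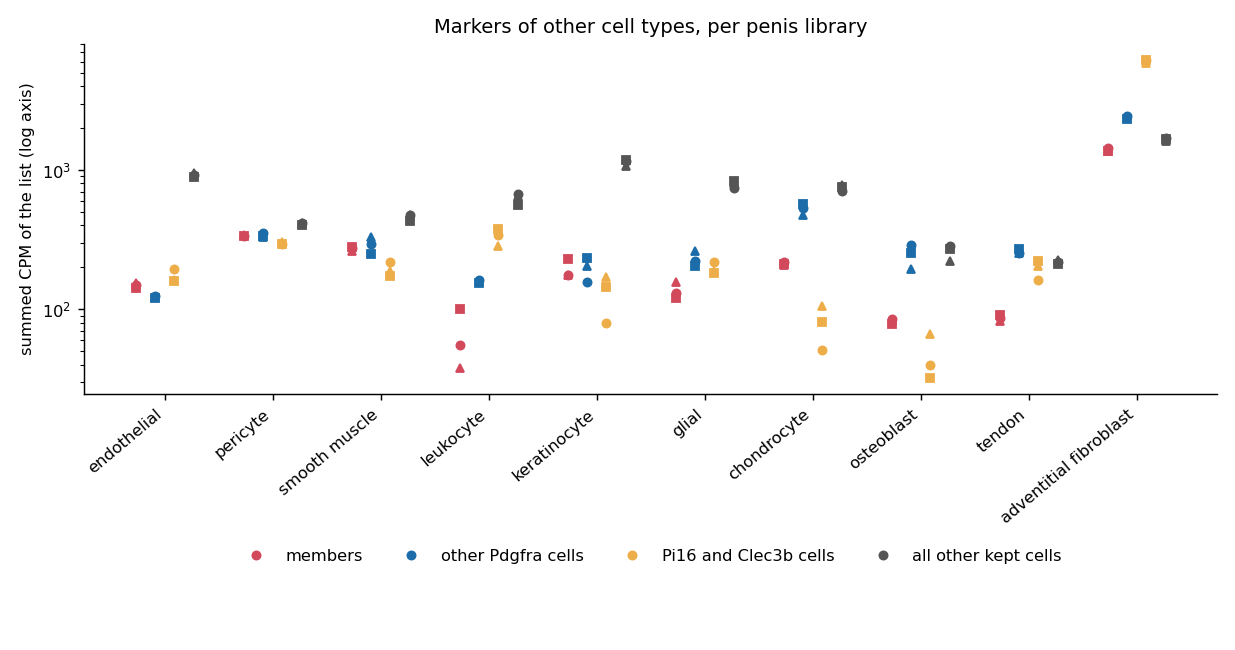
The y axis, on a log scale, gives the summed CPM of each list of markers in members, other *Pdgfra* cells, *Pi16* and *Clec3b* cells and all other kept penis cells, with circles, squares and triangles for penis libraries 1, 2 and 3. Members lie below all other kept cells for each of the 10 lists, from 37.7 to 101 CPM against 564 to 668 CPM for leukocyte markers to 1365 to 1435 CPM against 1620 to 1703 CPM for adventitial fibroblast markers.

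Members were then compared with 7190 other *Pdgfra* cells, kept non-members with a *Pdgfra* UMI and no *Cdh5* or *Rgs5* UMI, to ask how they differ from other stroma. The 3 pairs of summed UMIs were tested with edgeR's quasi-likelihood test, the library as a block and Benjamini-Hochberg adjustment. A gene was called at an adjusted p under 0.01 and a log2 fold change beyond 1 either way. Of 17292 genes tested, 1004 (5.81%) were called higher in members and 1162 (6.72%) lower, 12.5% in all. The rule genes came from earlier results on these same libraries, so genes that vary with them had to differ, and these tests show how even a difference was across the libraries. Every other *Pdgfra* cell had to carry a *Pdgfra* UMI, which only 66.4%, 68.0% and 66.4% of members did. How far that choice set the levels of genes that vary with *Pdgfra* was not tested. Depth differed too, with a median of 9944 to 11323 UMIs in members and 9269 to 10543 in the other *Pdgfra* cells.

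*Kcnip1*, *Ppp2r2b*, *Nwd2* and *Enpp2* had the largest log2 fold changes among called genes with a UMI in at least 25% of members in every library, mitochondrial, ribosomal protein and predicted genes aside. *Enpp2* stood at 1642, 1645 and 1625 CPM in members and 243, 216 and 233 CPM in other *Pdgfra* cells, a log2 fold change of 2.77 ± 0.0282 (SE, adjusted p = 5.28e-19). *Enpp2* is among the label's own markers, so its direction is no independent finding. *Apoe*, which encodes the lipid carrier apolipoprotein E, stood at 4535, 4534 and 4156 CPM against 904, 843 and 842 CPM, a log2 fold change of 2.29 ± 0.0223 (adjusted p = 5.28e-19). For both genes the lowest member library lay above the highest library of other *Pdgfra* cells. *Kcnip1*, which encodes a potassium channel interacting protein, stood at 122, 136 and 124 CPM against 17.2, 13.97 and 15.1 CPM. *Ppp2r2b*, a regulatory subunit of protein phosphatase 2A, stood at 864, 822 and 946 CPM against 129, 106 and 134 CPM. The log2 fold changes were 2.98 ± 0.0616 for *Kcnip1* and 2.78 ± 0.0323 for *Ppp2r2b*. *Nwd2* (2.78), *Emb*, which encodes the cell surface protein embigin (2.69), and *Sema5b*, a semaphorin (2.67), were also called. *Barx2*, a homeobox factor, had a log2 fold change of 2.60 against other *Pdgfra* cells, but 0.57 and no call against all other kept cells.

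*Igfbp6*, *Gap43* and *Aspn* had the largest negative log2 fold changes among called genes with a UMI in at least 25% of other *Pdgfra* cells in every library, with the same genes set aside. *Igfbp6*, which binds insulin-like growth factor 2, stood at 11.8, 8.19 and 8.66 CPM in members and 129, 132 and 108 CPM in other *Pdgfra* cells, a log2 fold change of -3.75 ± 0.0680 (adjusted p = 2.67e-16). *Ogn*, which encodes osteoglycin, stood at 104, 113 and 95.8 CPM against 980, 1126 and 1041 CPM, a log2 fold change of -3.38 ± 0.0320 (adjusted p = 5.28e-19). *Aspn*, which encodes asporin, had a log2 fold change of -3.56 and *Gap43*, better known from growing nerve endings, one of -3.63. No library of members overlapped the other *Pdgfra* cells for these 4 genes.

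**Figure D4:**
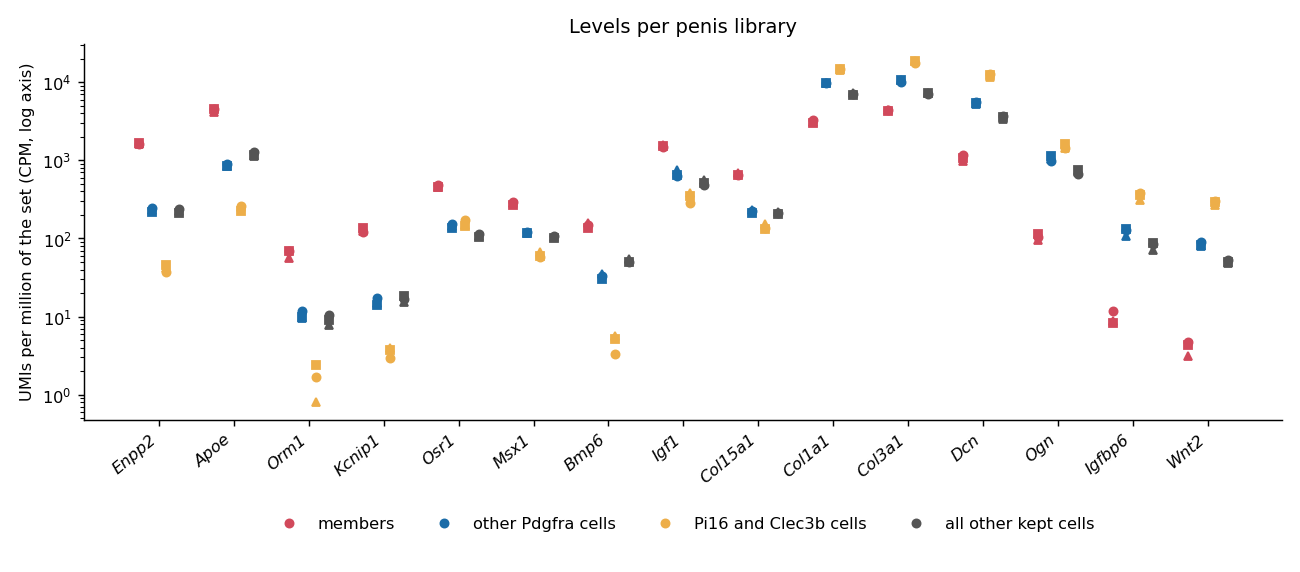
The y axis, on a log scale, gives CPM in members, other *Pdgfra* cells, *Pi16* and *Clec3b* cells and all other kept penis cells, with circles, squares and triangles for penis libraries 1, 2 and 3. *Enpp2*, *Apoe* and *Igf1* lie highest in members, and *Col1a1*, *Dcn*, *Ogn*, *Igfbp6* and *Wnt2* lie lowest in them. The *Enpp2* points of members, at 1642, 1645 and 1625 CPM, nearly coincide.

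Autotaxin's product acts through cell surface receptors. Of 10 genes of the lysophosphatidic acid pathway tested, *Enpp2* included, 3 were higher and 1 lower, with a median log2 fold change of 0.24 beside 0.00 over all genes tested. Over all genes tested, 5.81% were higher and 6.72% lower, and the list counts that follow for this comparison stand beside the same shares. *Lpar3*, a receptor, had a log2 fold change of 2.15 at 3.55, 3.14 and 3.33 CPM in members. *Lpar5* had one of 1.17, and its call was lost without penis library 1 or 2 and with DESeq2. *Lpar1*, the receptor with more UMIs, stood at 258, 248 and 263 CPM in members and 338, 329 and 364 CPM in other *Pdgfra* cells and was not called. *Lpar4*, also a receptor, had a log2 fold change of -1.04, and -0.78 without a call once *Pi16* and *Clec3b* cells were left out of the comparison. The call was also lost with a threshold of 2 or of 4 rule genes.

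Among the acute phase and complement genes, the orosomucoids outside the rule, *Orm1* and *Orm2*, were higher. *Orm1* stood at 70.2, 69.0 and 56.6 CPM in members and 11.9, 10.0 and 9.52 CPM in other *Pdgfra* cells, a log2 fold change of 2.58 ± 0.0619 (adjusted p = 7.81e-15). *Orm2*, at 5.78, 5.53 and 5.14 CPM in members, had a log2 fold change of 2.98 ± 0.210. The copies are alike: the last 300 bases of the longest coding transcripts were 97.7% identical between *Orm1* and *Orm2* and 90.7% between *Orm1* and *Orm3*, so reads may be split uncertainly among them. As *Orm3* helped to choose the members, the direction of *Orm1* and *Orm2* is no independent finding. *Orm1* had a UMI in 53.7%, 50.7% and 40.05% of members with *Orm3* and in 34.2%, 32.2% and 32.2% of members without. *C4b*, a complement component, was called higher (1.91). Of the 22 genes of the list tested, 3 were higher and 6 lower, with a median of -0.21, beside 5.81% higher and 6.72% lower over all genes.

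Other genes of lymphoid stroma were also measured. Of 18 tested, 1 was higher, 7 were lower and 10 were not called, with a median log2 fold change of -0.99. The higher gene, the B cell chemokine *Cxcl13*, stood at only 2.37, 2.52 and 1.90 CPM in members. *Pdpn*, which encodes podoplanin of lymph node reticular cells, stood at 19.97, 21.6 and 21.99 CPM in members and 60.9, 60.0 and 65.5 CPM in other *Pdgfra* cells, a log2 fold change of -1.61. *Cxcl12*, *Il33* and *Grem1* were called lower, at -1.31, -1.45 and -2.79, and the call for *Cxcl12* was lost, at -0.88, with a threshold of 2 rule genes. Of the other lower genes, *Cxcl9*, at 0, 0.273 and 0.571 CPM in members, lost its call without penis library 1 or 2, without the library block, with DESeq2 and with a threshold of 4 rule genes, and *Il7* lost its call with DESeq2. *Ccl21a*, the other ligand gene of CCR7, had 18, 6 and 12 UMIs in members of 5883, 3672 and 4075 in all barcodes of the 3 libraries. Those barcodes include every cell type. Against other *Pdgfra* cells *Ccl21a* had a log2 fold change of 0.65 and was not called.

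Genes of the angiopoietin and VEGF families were mixed. Of 17 tested, 3 were higher and 4 lower, with a median of 0.37, beside 5.81% higher and 6.72% lower over all genes. *Nrp1*, a co-receptor for VEGF, stood at 481, 431 and 498 CPM in members and 196, 182 and 213 CPM in other *Pdgfra* cells, a log2 fold change of 1.19 ± 0.0239. *Vegfa*, the main endothelial growth factor, stood at 216, 214 and 252 CPM against 109, 113 and 127 CPM, a log2 fold change of 0.90 that was not called for its size. *Angpt1*, the partner ligand of *Angpt2*, had one of 0.37 and was not called. *Tek*, which encodes Tie2, the receptor of both, was lower (-2.60), as were *Vegfc* (-1.72) and *Vegfd* (-2.24), the lymphatic growth factors. *Tie1* was called higher at 2.10, 2.39 and 1.81 CPM in members, but had a log2 fold change of -0.15 when cells with *Cdh5* or *Rgs5* were let in.

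The genes of prolactin and growth hormone signalling gave 1 higher and 1 lower of 10, with a median of -0.00. Over all genes tested, 5.81% were higher and 6.72% lower, so these counts do not set the list apart. *Igf1*, which encodes insulin-like growth factor 1, stood at 1499, 1535 and 1567 CPM in members and 626, 656 and 742 CPM in other *Pdgfra* cells, a log2 fold change of 1.13 ± 0.0280. The call was lost, at 0.99, with a threshold of 4 rule genes. *Stat5a*, which acts below the prolactin receptor, had a log2 fold change of 0.60, the growth hormone receptor gene *Ghr* one of -0.58 and *Socs2*, a target of STAT5, one of -0.90, and none was called. *Igfbp5* was lower (-1.44).

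Collagen and proteoglycan genes were mostly lower. Of 24 collagen genes tested, 1 was higher and 13 lower, with a median of -1.12. *Col1a1*, a chain of type I collagen, stood at 3290, 3034 and 3084 CPM in members and 9637, 9707 and 9837 CPM in other *Pdgfra* cells, a log2 fold change of -1.69 ± 0.0212 (adjusted p = 4.42e-18). *Col3a1* (-1.31), *Col6a3* (-1.88) and *Col8a1* (-3.23) followed it. The exception, *Col15a1*, which encodes a collagen of basement membrane zones, stood at 653, 651 and 691 CPM against 228, 214 and 235 CPM, a difference of 2.83-fold (adjusted p = 4.40e-17). Of 9 small leucine-rich proteoglycan genes, 0 were higher and 7 lower, with a median of -2.41. *Dcn* stood at 1158, 1068 and 985 CPM against 5563, 5420 and 5291 CPM, and *Lum*, which encodes lumican, had a log2 fold change of -2.12. *Bgn*, which encodes biglycan, did not follow them, at 1096, 1008 and 1033 CPM in members and 1037, 990 and 1009 CPM in other *Pdgfra* cells.

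The signalling genes differed member by member. Of 21 BMP and TGF-beta genes, 2 were higher and 7 lower, with a median of -0.28. *Bmp6*, a BMP ligand, stood at 151, 137 and 158 CPM in members and 33.5, 30.1 and 35.3 CPM in other *Pdgfra* cells, a log2 fold change of 2.11 ± 0.0350. *Bmper*, which encodes a secreted BMP-binding protein of endothelial development, stood at 662, 634 and 715 CPM against 212, 190 and 219 CPM, a log2 fold change of 1.63 ± 0.0238. The ligands *Bmp2* (-2.07), *Bmp3* (-4.30), *Bmp5* (-3.35) and *Bmp7* (-2.18) were all lower. Of 24 Wnt pathway genes, 2 were higher and 8 lower, with a median of -0.48. *Wnt2*, a ligand, stood at 4.73, 4.37 and 3.14 CPM against 89.0, 82.0 and 80.5 CPM, a log2 fold change of -4.39 ± 0.0732, and the inhibitors *Wif1* (-4.00) and *Notum* (-4.24) were lower as well. *Sfrp1* (1.11) and *Rspo2* (1.17), a Wnt inhibitor and a Wnt enhancer, were called higher, but fell to 0.98 and 0.99 without a call once *Pi16* and *Clec3b* cells were left out.

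Of 42 position and patterning factors, 3 were higher and 13 lower, with a median of -0.27. *Osr1* stood at 478, 450 and 450 CPM in members and 154, 135 and 144 CPM in other *Pdgfra* cells, a log2 fold change of 1.61 ± 0.0262. The homeobox genes *Msx1* (2.29-fold) and *Msx2* (2.83-fold) were also higher. *Foxp2* (-3.48), *Ebf2* (-3.34), *Tbx15* (-2.86) and *Ebf3* (-2.74) were among the lower. *Hoxa13* (0.57) and *Hoxd13* (-0.00), which pattern the genital tubercle, were not called.

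Skeletal and adventitial markers were mostly lower in members than in other *Pdgfra* cells: 9 of 10 chondrocyte markers, 5 of 7 osteoblast markers, 5 of 6 tendon markers and 6 of 10 adventitial fibroblast markers, with 0 higher in each. Of 10 glial markers 6 were lower, while 2 of 8 pericyte, 2 of 10 smooth muscle, 2 of 10 leukocyte and 0 of 9 keratinocyte markers were, and 1 smooth muscle marker, *Lmod1*, was higher. Of 15 cell division genes 2 were lower and 0 higher, and those calls, *Cenpf* and *Hmmr*, were lost with a threshold of 2 rule genes. Of 15 genes of the response to tissue dissociation 0 were called, with a median of 0.22. *Pecam1*, an endothelial marker, was called higher (1.32), at 99.8, 91.5 and 104 CPM in members and 35.2, 37.3 and 41.1 CPM in other *Pdgfra* cells. It was the 1 higher gene of 11 endothelial markers tested, of which 2, *Flt1* and *Ctla2a*, were lower and 8 were not called, with a median of -0.15. Its part in the other results was not tested.

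**Figure D5:**
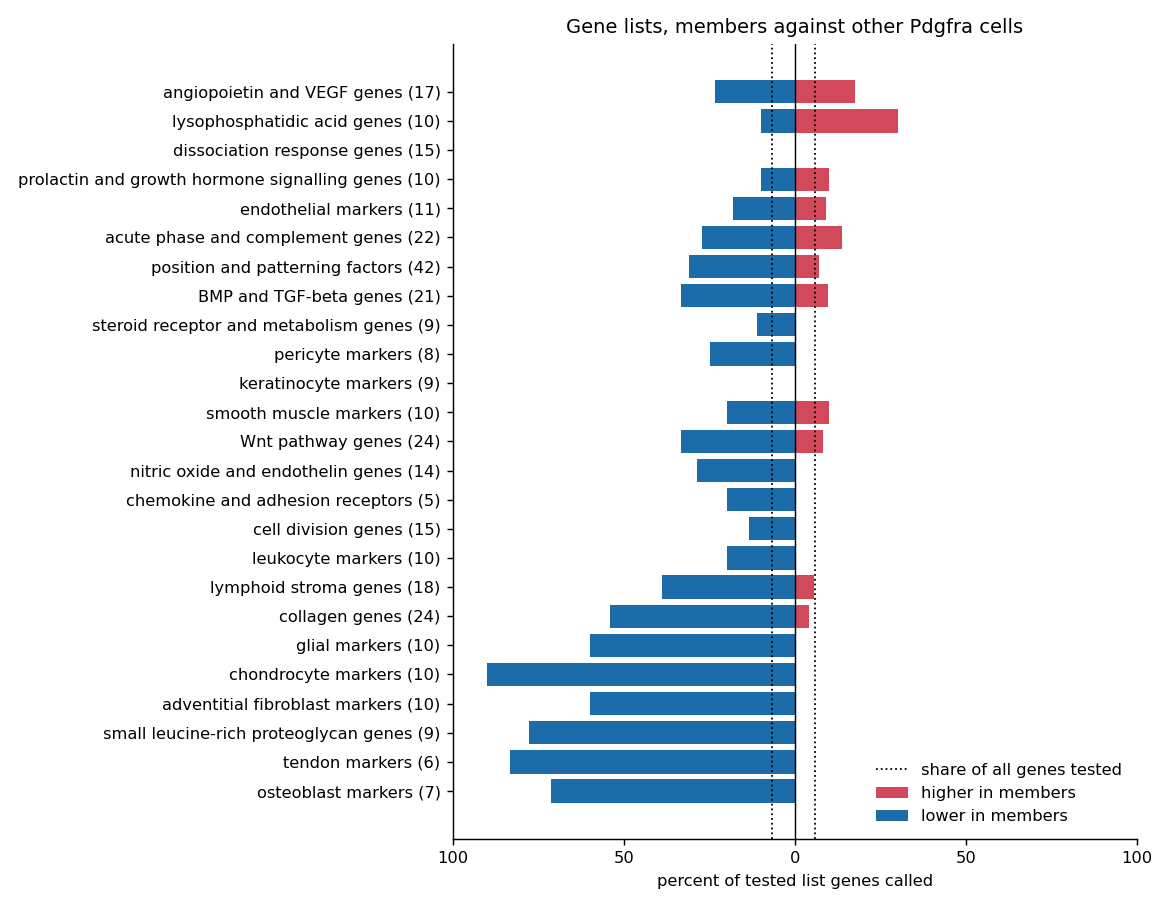
Bars give the percent of the tested genes of each list, with their number in brackets, that were called higher (right) or lower (left) in members than in other *Pdgfra* cells, and dotted lines the share over all genes tested, 5.81% higher and 6.72% lower. The lists of small leucine-rich proteoglycans, collagens and chondrocyte, osteoblast and tendon markers extend far to the left, with 7 of 9, 13 of 24, 9 of 10, 5 of 7 and 5 of 6 genes lower.

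A second comparison set members against 1150 *Pi16* and *Clec3b* cells, kept non-members with a UMI of both genes and none of *Cdh5* or *Rgs5*. *Pi16* marks adventitial fibroblasts, which lie around vessels and in fascia. Most of them, 85.6% to 90.3%, were also among the other *Pdgfra* cells, and both comparisons share the members. Of 15291 genes tested, 1316 (8.61%) were called higher in members and 1175 (7.68%) lower, 16.3% in all. *Enpp2* had a log2 fold change of 5.11 ± 0.0453 (adjusted p = 6.34e-22), and *Orm1* one of 5.09. *Dok5*, an adaptor of receptor tyrosine kinases, stood at 39.7, 39.7 and 39.9 CPM in members and 0.931, 1.58 and 0.531 CPM in these cells. *Wnt2* stood at 4.73, 4.37 and 3.14 CPM in members and 299, 297 and 265 CPM in these cells, a log2 fold change of -6.30 ± 0.0659, and *Asz1* (-6.49), *Anxa3* (-5.98), *Cyp1b1* (-5.88) and *Spock3* (-5.44) were also among the lowest. All 8 adventitial markers tested were lower, which the choice of the cells partly fixes. Chondrocyte markers, mostly lower against other *Pdgfra* cells, were here 4 higher and 0 lower of 9, with a median of 1.02. Of these 4, *Col2a1*, *Col9a1* and *Col9a3* lost the call without penis library 1 and with a threshold of 4 rule genes, and *Col2a1* and *Col9a3* with DESeq2. Smooth muscle markers were 4 higher and 0 lower of 10, with a median of 0.45. *Acta2* among them lost the call without library 2 or 3, with DESeq2 and with a threshold of 4 rule genes. *Bmp6*, at 3.35, 5.14 and 5.58 CPM in these cells, had a log2 fold change of 4.81.

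Against all 16008 other kept penis cells, which hold every other cell type, 1183 of 18861 genes (6.27%) were called higher in members and 2430 (12.9%) lower, 19.2% in all. *Enpp2* (2.85), *Apoe* (1.85) and *Osr1* (2.05) were higher here too. *Hey2*, a transcription factor acting below Notch, stood at 54.7, 59.1 and 53.4 CPM in members and had a log2 fold change of 2.23. *Slc6a2*, which encodes the noradrenaline transporter of sympathetic nerves, stood at 35.3, 32.3 and 36.5 CPM, with a log2 fold change of 2.12. *Crip2* (-3.87), *Aspn* (-3.17) and *Nr2f2* (-2.98) had the largest negative log2 fold changes among called genes with a UMI in at least 25% of the other cells in every library. This set includes the endothelial cells and pericytes that the rule kept out of the members.

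Members were also split by *Ccl19* itself. The 1058, 1044 and 779 members with it were set against 247, 275 and 222 without, which had to carry 3 of the 5 other genes. Of 14484 genes tested, 14 (0.0967%) were called higher with *Ccl19* and 53 (0.366%) lower, 0.463% in all. *Aspn* (-1.89) and *Ogn* (-1.44), from the proteoglycan list, were among the lower. With mitochondrial, ribosomal protein and predicted genes aside, 0 called genes had a UMI in at least 25% of the higher set in every library. *Enpp2* had a log2 fold change of -0.04 ± 0.0345 (adjusted p = 0.581) and *Apoe* one of 0.56, which was not called for its size. Members with *Ccl19* were deeper, with a median of 10283 to 11599 UMIs against 8706 to 10275. With DESeq2, 0 genes were called higher and 3 lower. Without penis library 3 the edgeR counts were 38 higher and 153 lower, and without library 1 there were 28 higher. With a threshold of 2 rule genes they were 46 higher and 400 lower.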

How the data were processed

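Cells of P6 penis (3 libraries), E15 forelimb (1 library) and E15 hindlimb (1 library) were profiled with 10X Genomics 3′ chemistry. The authors aligned reads to mm10 with Cell Ranger (version 7.0.0) and deposited raw UMI counts per gene and cell barcode; whether intronic reads were counted is not given in the sources used here. The 5 matrices held 84440 barcodes, and the penis libraries 100636762, 98534329 and 70554067 UMIs. No doublet caller was run; leaving out members with markers of another cell type was an alternative.

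UMIs were summed per library and set of cells with Python 3.11.15, and the sums were tested with edgeR 4.0.16 (R 4.3.3) by the quasi-likelihood test, after TMM scaling and filterByExpr, with a block per library because both sums come from the same library. SEs were derived from the F statistic as the absolute log2 fold change divided by its root. DESeq2 1.42.0 was an alternative. The 8 genes of the rule were left out of all calls, as were *Pdgfra*, *Pi16* and *Clec3b* where they chose the cells compared. Tested on simulated counts for the comparison with other *Pdgfra* cells, 17020 genes, edgeR recovered 99% of genes changed by a log2 fold of 2 and 100% of those changed by 3. The simulation gave every gene the same dispersion and held no library effect. No change below a log2 fold of 2 was simulated, so recovery nearer the limit for a call was not measured. The members, gene lists and tests were chosen with earlier results of these data known. Against all other cells and against other *Pdgfra* cells, 12 higher and 8 lower called genes were named. Against *Pi16* and *Clec3b* cells 6 of each were named. They had the largest log2 fold changes among those with a UMI in at least 25% of cells of the higher set in every library. The same rule, set at 6 of each for the *Ccl19* split, left 0 genes there. Also named were the rule genes, their paralogs and *Enpp2*. From each list, up to 4 genes with the largest change and any needed to say what it did were added. Mitochondrial, ribosomal protein and predicted genes were counted but not named. Gene positions came from the GENCODE annotation of GRCm38, and promoter windows and sequences from RefSeq (GRCm38.p6), which held 27 of the 42 rule and named genes. Intervals and limits from a count of 0 cover counting error only. Alternatives were DESeq2, no filter on low counts, thresholds of 2 and 4 rule genes, other limits on cells and depth, thinning to 2000 UMIs, no block and leaving out each library.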

Additional observations from a re-analysis of the deposited data

Results flagged for a closer look

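Barcodes outside the limits on kept cells also met the gene rule, in data that the comparisons did not use. Among barcodes with over 6000 detected genes, 81 of 521 met it in penis library 1, 81 of 446 in library 2 and 59 of 308 in library 3, or 15.6% to 19.2%. Among those with over 5% mitochondrial UMIs, 65 of 1196 met it in library 1, 81 of 1352 in library 2 and 46 of 921 in library 3, or 5.00% to 5.99%.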

How the results depend on the processing

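Of the results named in the design, 143 values stayed within 1 SD between libraries, within 1.5 times the count or, where tested, on their side of the threshold, and 41 moved, with the differences keeping their sign. Held-out differences, unthinned from 33.3 to 68.4 percentage points, became 57.0 for *Angpt2*, 41.3 for *Ccl19*, 20.01 for *Orm3*, 42.4 for *Pi15*, 23.0 for *Prlr* and 34.8 for *Stk32a* with thinning to 4000 UMIs, 42.7, 26.3, 11.9, 30.9, 15.6 and 22.8 at 2000 UMIs, and 58.8, 53.0, 26.7, 51.3, 27.1 and 41.1 with 2 or more of the other 5 genes. The penis minus limb share, 13.3 points at 4000 UMIs, was 6.41 at 2000 UMIs and 18.4 unthinned. The share of kept cells that were members (18.4%) moved to 27.3% with a threshold of 2 rule genes, 11.9% with 4, 22.4% among cells of 6000 to 15000 UMIs, 16.5% without members that carried markers of other types, 17.1% with mitochondrial UMIs up to 10%, and 19.7% with cells holding *Cdh5* or *Rgs5* let in. The share of member neighbours was 73.6% with 50 neighbours. The split by *Ccl19* was the least stable. Its 14 higher and 53 lower genes became 35 and 111 with no filter on low counts, 0 and 3 with DESeq2, 46 and 400 with a threshold of 2 rule genes, and 2 and 11 with 4. There were 9 higher among cells of 6000 to 15000 UMIs, and 9 higher and 32 lower without members that carried markers of other types. Leaving out 1 library at a time gave 14 to 38 higher and 64 to 153 lower, the largest without library 3. The cause was not tested. Without the replicate block, which pairs both sums of a library, the counts were 974 higher and 1124 lower against other *Pdgfra* cells, 1149 and 2405 against all other cells, 1337 and 1183 against *Pi16* and *Clec3b* cells, and 10 and 51 for the *Ccl19* split, each within 1.5 times the count with the block. DESeq2 shared 1616 of edgeR's 2166 calls against other *Pdgfra* cells. Of values for named genes, 7592 kept direction and call, 246 lost the call and 4 reversed: *Runx2* against *Pi16* and *Clec3b* cells (0.85 among cells of 6000 to 15000 UMIs), and, against other *Pdgfra* cells, *Cdh19* (0.25) and *Ednrb* (0.0558) with a threshold of 2 rule genes and *Tie1* (-0.15) with *Cdh5* or *Rgs5* let in. The comparison without *Pi16* and *Clec3b* cells among other *Pdgfra* cells was chosen after seeing the data. Genes at a few CPM, such as *Cxcl13*, *Lpar3*, *Tie1* and *Notum*, rest on few UMIs.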

Other observations

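Genes of further lists were called between members and *Pi16* and *Clec3b* cells, in both directions. Of 8 steroid receptor and metabolism genes tested, 3 were called higher in members and 2 lower. Without library 1 or library 3, *Nr3c2* of the higher and *Pgr* of the lower lost the call, and *Pgr* did so with DESeq2. *Esr1*, an estrogen receptor gene, stood at 118, 117 and 130 CPM in members with a log2 fold change of 2.23 ± 0.0860, and *Srd5a2*, which encodes the enzyme that makes dihydrotestosterone, at 70.3, 76.4 and 65.7 CPM with one of 2.21 ± 0.0976. Against other *Pdgfra* cells neither was called, with log2 fold changes of 0.40 for *Esr1* and -0.41 for *Srd5a2*. Of 12 nitric oxide and endothelin genes, 3 were higher and 2 lower. *Prkg1*, the cyclic GMP-dependent kinase of smooth muscle relaxation, stood at 738, 716 and 807 CPM in members and 238, 230 and 264 CPM in *Pi16* and *Clec3b* cells, and the endothelin receptor gene *Ednra* at 154, 146 and 153 CPM against 33.9, 34.6 and 35.1 CPM. Of 22 Wnt pathway genes, 7 were higher and 5 lower, among them *Dkk2*, a Wnt inhibitor (3.02), and *Lef1*, a nuclear effector (2.43). *Sox9*, a transcription factor of cartilage and other progenitors, stood at 157, 159 and 162 CPM in members and 20.1, 15.4 and 21.3 CPM in *Pi16* and *Clec3b* cells. These counts stand beside 8.61% higher and 7.68% lower over all genes tested. Against other *Pdgfra* cells, *Prkg1*, *Ednra*, *Dkk2*, *Lef1* and *Sox9* were not called. Of 14 nitric oxide and endothelin genes tested against those cells, 0 were higher and 4 lower.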
